A study of Homo sapiens with 8 samples.

Results

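The genes described are CHCHD2, its 6 relatives CHCHD10, CHCHD3, CHCHD4, CHCHD5, CHCHD6 and CHCHD7, and SPATA18, which make 8 of the 17504 genes in the deposited table. They were picked by gene symbol, with the difference between knockdown and control already known. Their values in that contrast are therefore given as a description, with no p-value. The study sequenced bulk RNA of day 30 brain organoids made from IMR90-4, an established line of human induced pluripotent stem cells, with 3 libraries per group. Control organoids carry the genotype label WT and the line name FCT, and knockdown organoids carry the genotype label FABP7 knockdown and the line name FKD. Each group is 1 cell line, so any other difference between the lines cannot be told apart from the knockdown. The sources used here do not give the knockdown method, and 2 single-cell libraries were not analysed here. Nothing in the labels makes the replicates separate cultures, so a p-value reflects the spread among these libraries alone, and that spread may be technical.

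CHCHD proteins are small proteins of the mitochondrial intermembrane space. Most carry paired cysteines in the twin CX9C arrangement, which the import receptor CHCHD4, also called MIA40, oxidises as they enter, so that they fold and stay inside. CHCHD2 and CHCHD10 are close paralogs that bind each other, and both are known in neurology because mutations in CHCHD2 cause a form of Parkinson disease and mutations in CHCHD10 cause motor neuron disease with frontotemporal dementia. CHCHD3 and CHCHD6 are subunits of MICOS, the complex that holds cristae junctions together. SPATA18, also called Mieap, acts in mitochondrial quality control and is reported to be repressed by ZNF558, a KRAB zinc finger protein.

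Library totals were 13424959 to 15675888 estimated counts, and 3 counts in a library correspond to 0.188 to 0.217 CPM, which are read counts scaled to library size with TMM factors. FABP7 itself had 3123, 2650 and 2850 counts in control and 14, 15 and 16 in knockdown, which fits the labels. Neural genes that define the labelled tissue were abundant: summed levels of 5 progenitor markers were 951.1 to 989.0 CPM in control and 1035 to 1042 CPM in knockdown, with SOX2 at 206.2 and 308.2 CPM and PAX6, in the other direction, at 177.4 and 148.8 CPM. Those of 5 neuron markers were 3863 to 3919 and 3168 to 3213 CPM. In bulk RNA, fewer cells of a type and less RNA per cell cannot be told apart. Of 13468 genes tested with edgeR, 51.7% passed an adjusted p of 0.05, 26.4% higher in knockdown and 25.3% lower, so a call alone sets no gene apart here. In 57.3% of tested genes the libraries of the groups did not overlap.

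The 3 promoter windows below are shown because CHCHD2 and SPATA18 had the largest differences between the groups among the 8 genes and CHCHD10 is the paralog that did not follow CHCHD2. Each is the 250 bases before the annotated start on the gene's own strand, from RefSeq on GRCh38.p14. Capitals mark matches, on either strand, to the ETS motif CGGAAG, the CCAAT box CCAAT, the CRE-like motif TGACGT and the GC box GGGCGG; no capitals overlap between motifs.
CHCHD2, chr7:56106477-56106726, minus strand: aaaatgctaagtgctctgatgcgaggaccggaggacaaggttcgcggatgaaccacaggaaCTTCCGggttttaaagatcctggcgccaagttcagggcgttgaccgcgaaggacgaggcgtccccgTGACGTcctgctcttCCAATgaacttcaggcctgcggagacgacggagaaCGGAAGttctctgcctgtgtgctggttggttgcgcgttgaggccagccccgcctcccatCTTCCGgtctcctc
CHCHD10, chr22:23767973-23768222, minus strand: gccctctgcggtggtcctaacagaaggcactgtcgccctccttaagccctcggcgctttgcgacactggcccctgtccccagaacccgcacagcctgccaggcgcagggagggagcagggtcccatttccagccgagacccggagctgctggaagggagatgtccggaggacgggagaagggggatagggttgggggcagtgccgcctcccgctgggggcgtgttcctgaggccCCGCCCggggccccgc
SPATA18, chr4:52051054-52051303, plus strand: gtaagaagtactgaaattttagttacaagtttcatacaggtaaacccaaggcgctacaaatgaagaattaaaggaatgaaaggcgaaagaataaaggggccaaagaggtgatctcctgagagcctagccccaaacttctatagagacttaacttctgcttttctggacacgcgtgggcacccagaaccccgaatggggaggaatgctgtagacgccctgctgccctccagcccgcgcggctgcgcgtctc
The CHCHD2 window had 59.2% G and C and 21 CpG sites, more than 61.4% of the 22196 windows of protein-coding genes. It held the ETS motif 3 times, at 189 to 184, 73 to 68 and 14 to 9 bases before the start. Of all windows 20.2% carry that motif at least 1 time, and the share with 3 copies was not counted. It also held 1 CCAAT box, present in 32.7% of windows, and 1 CRE-like motif, present in 8.0%. The CHCHD10 window had 70.4% G and C, 17 CpG sites and 1 GC box, which 53.7% of windows carry, and shared no motif with the CHCHD2 window. The SPATA18 window had 50.0% G and C and 11 CpG sites, and none of the 7 motifs searched. Those were the 4 above and NRF1, the TATA box (TATAAA) and RBPJ (TGGGAA), which 6.56%, 9.01% and 20.1% of windows carry. Among the relatives, CHCHD4 alone had the NRF1 motif, the ETS motif was also found before CHCHD5 and CHCHD6, and the RBPJ motif was found before CHCHD3, CHCHD4 and CHCHD5. The promoter of CHCHD7 was not analysed here.

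CHCHD2, a partner of cytochrome c oxidase that also acts as a transcription factor in the nucleus, was almost undetected in control organoids and among the abundant transcripts in knockdown organoids. The gene is NCBI Gene 51142 and lies at chr7:56101573-56106476 on GRCh38. It had 1, 1 and 0 counts in control replicates 1, 2 and 3, and 1478, 1471 and 1442 counts in knockdown replicates 1, 2 and 3. Every knockdown library stood far above every control library, with none between. In TPM, which is per transcript length, the levels were 0.18, 0.22 and 0 in control and 266.0, 266.9 and 262.4 in knockdown. The scaled level was 0.0451 ± 0.0393 CPM in control and 98.7 ± 2.52 CPM in knockdown (SD, n = 3 each). The control value lies below the level of 3 counts in a library. The ratio of summed counts, scaled for library size, was 2199, and its 95% interval for counting error ran from 608.3 to 18160 because the control side rests on 2 counts. By TPM, 97.65% of the 17504 genes stood below CHCHD2 in knockdown and 15.53% in control. The knockdown libraries differed among themselves by a coefficient of variation of 2.56%, about the 2.61% that counting alone gives. The annotation lists 10 genes named as pseudogenes of CHCHD2, none of which is a row of the table. How reads shared with such copies were counted is not given in the sources used here.

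CHCHD10, the paralog and binding partner of CHCHD2, showed no such difference. The gene is NCBI Gene 400916 at chr22:23765834-23767972. It had 41, 31 and 25 counts in control and 38, 34 and 42 in knockdown, and the groups overlapped. Its level was 2.17 ± 0.448 CPM in control and 2.56 ± 0.250 CPM in knockdown (SD, n = 3 each), which gives a log2 difference of 0.24 (SE 0.21.) With so few counts, a change of the size of that error could not be seen here. Because the 2 paralogs form a pair, their summed TPM was also taken, and it was 9.28, 8.70 and 6.55 in control against 274.4, 274.5 and 271.9 in knockdown. CHCHD10 made up 98.06%, 97.47% and 100% of that sum in control and 3.051%, 2.783% and 3.501% in knockdown. Almost all transcript of the pair was thus CHCHD10 in control and CHCHD2 in knockdown. The gene overlaps C22orf15 and MMP11 on the other strand, and whether the counting used strand is not given in the sources used here. Muscle, where CHCHD10 is abundant, was nearly absent from the organoids: 5 marker genes summed to 1.485 to 2.173 CPM in control and 0.946 to 1.197 CPM in knockdown, 2 of them at or under 3 counts in every library.

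**Figure D1:**
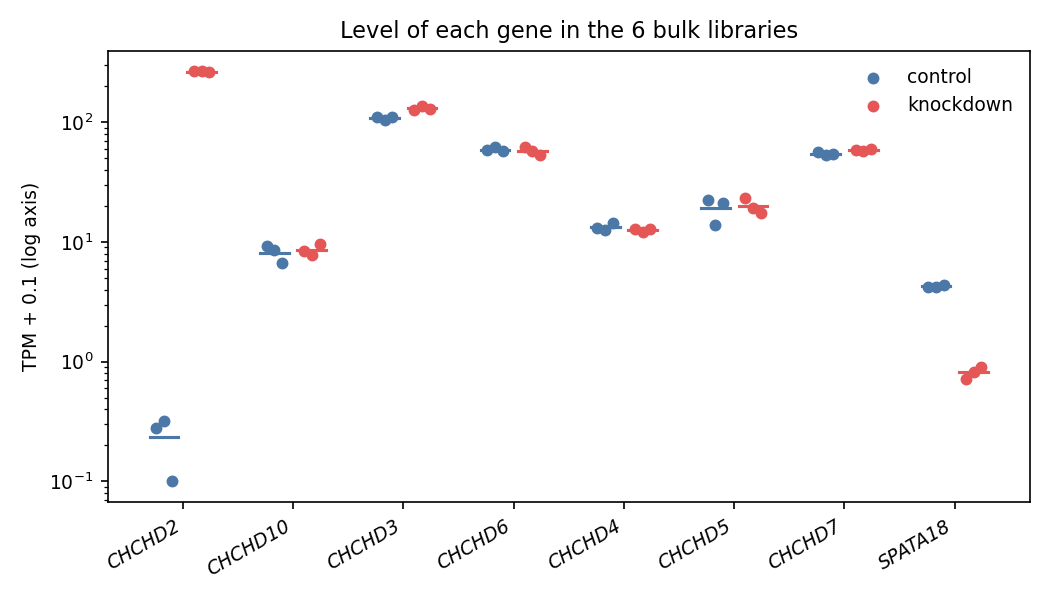
Level of the 8 genes in each of the 6 libraries, as TPM plus 0.1 on a log axis, with points for libraries and lines for group means. CHCHD2 goes from the lowest level of the 8 in control (0, 0.18 and 0.22 TPM) to the highest in knockdown (262.4 to 266.9 TPM), SPATA18 is lower in knockdown, and the other 6 genes lie at similar heights in both groups.

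The MICOS subunit CHCHD3, also called MIC19, was moderately higher in knockdown, and CHCHD6, also called MIC25, was not separable between the groups. CHCHD3 (NCBI Gene 54927, chr7:132784870-133082090) had 1549, 1264 and 1413 counts in control and 1850, 1988 and 1896 in knockdown. The 3 knockdown libraries lay above the 3 control libraries, at 128.9 ± 4.72 against 94.7 ± 2.89 CPM (SD, n = 3 each), which is 1.36-fold and a log2 fold change of 0.44 (SE 0.05.) Its difference on log2(TPM + 1) was 0.27. CHCHD6 (NCBI Gene 84303, chr3:126704240-126960420) had 447, 396 and 387 counts in control and 483, 444 and 418 in knockdown. Its levels overlapped, at 27.6 ± 1.33 and 30.25 ± 2.58 CPM, with a log2 fold change of 0.13 (SE 0.07.) Its difference was -0.04 on log2(TPM + 1), so its direction rests on the scaling.

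CHCHD4, the import receptor on which the other CHCHD proteins depend, had a similar level in both groups. CHCHD4 (NCBI Gene 131474, chr3:14112077-14124870) had 160, 132 and 159 counts in control and 161, 153 and 164 in knockdown, and the groups overlapped. Its level was 10.1 ± 0.589 CPM in control and 10.7 ± 0.352 CPM in knockdown (SD, n = 3 each), which gives a log2 difference of 0.09 (SE 0.10), and it was -0.07 on log2(TPM + 1). The annotation lists 4 pseudogenes of CHCHD4 and 3 of CHCHD3, none in the table.

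CHCHD5 and CHCHD7 are the less studied relatives, and the yeast counterpart of CHCHD7, Cox23, takes part in assembling cytochrome c oxidase. CHCHD5 (NCBI Gene 84269, chr2:112584447-112589040) had 61, 28 and 44 counts in control and 60, 48 and 42 in knockdown, with overlap between the groups. It was the most scattered of the relatives in control, with a coefficient of variation of 30.6% where counting alone gives 15.02%. Its log2 fold change was 0.18 (SE 0.21), and leaving out 1 library at a time moved it between -0.02 and 0.42. CHCHD7 (NCBI Gene 79145, chr8:56211789-56218809) had 874, 709 and 767 counts in control and 937, 929 and 973 in knockdown. The knockdown libraries lay above the control libraries, at 63.8 ± 0.978 against 52.65 ± 1.91 CPM (SD, n = 3 each), or 1.21-fold, with a log2 fold change of 0.28 (SE 0.05.) On log2(TPM + 1) the difference was 0.10 and CHCHD7 no longer passed the threshold.

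**Figure D2:**
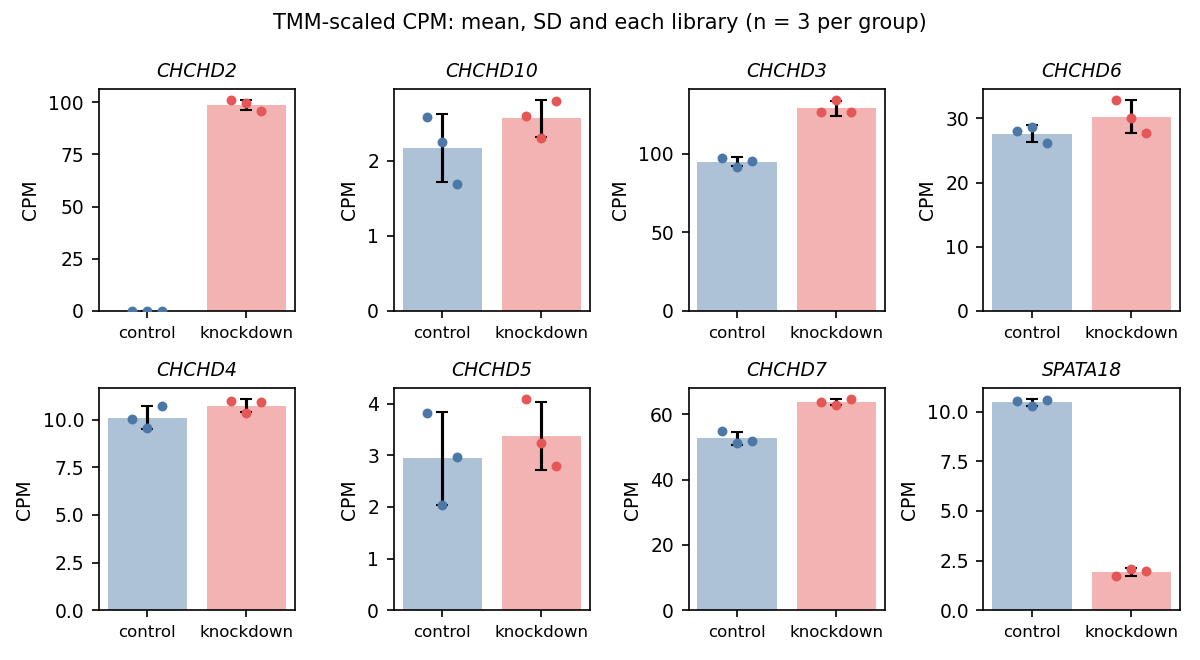
TMM-scaled CPM of each of the 8 genes, with bars for the mean, whiskers for the SD and points for the 3 libraries of each group; every axis starts at 0 and has its own scale. The knockdown libraries lie clear above the control libraries for CHCHD2, CHCHD3 and CHCHD7 and clear below them for SPATA18, and the libraries overlap for CHCHD10, CHCHD6, CHCHD4 and CHCHD5.

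SPATA18, which drives the removal of oxidised mitochondrial proteins and damaged mitochondria, was lower in knockdown organoids. The gene is NCBI Gene 132671 at chr4:52051304-52097299. It had 168, 142 and 157 counts in control and 25, 31 and 30 in knockdown, and the groups did not overlap. Its level was 10.5 ± 0.167 CPM in control and 1.93 ± 0.202 CPM in knockdown (SD, n = 3 each), 5.42-fold higher in control, with a log2 fold change of -2.43 (SE 0.14.) In TPM it was 4.14, 4.12 and 4.30 in control and 0.62, 0.72 and 0.80 in knockdown. The control libraries were alike to a coefficient of variation of 1.59%, less than the 8.02% of counting alone. SPATA18 is also abundant in cells with motile cilia, so their markers were read beside it: 7 markers summed to 10.26 to 11.17 CPM in control and 8.784 to 12.35 CPM in knockdown, with overlap. The best known of them were near the same level in both groups, FOXJ1 at 2.88 and 2.56 CPM and CCDC39 at 5.35 and 5.27 CPM, and MCIDAS had at most 1 count in a library.

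Of the 8 genes, 3 were higher past the threshold (CHCHD2, CHCHD3 and CHCHD7), 1 was lower (SPATA18) and 4 did not pass it, beside 51.7% of all tested genes. The same 4 that passed had no overlap between groups, beside 57.3% of all tested genes. All 8 passed the filter on low counts, CHCHD2 only through the knockdown libraries. In control the order by TPM was CHCHD3 (108.5), CHCHD6 (59.1), CHCHD7 (54.4), CHCHD5 (19.0), CHCHD4 (13.3), CHCHD10 (8.04), SPATA18 (4.19) and CHCHD2 (0.133), and only CHCHD5 and CHCHD4 overlapped as neighbours. In knockdown it was CHCHD2 (265.1), CHCHD3 (130.7), CHCHD7 (58.55), CHCHD6 (57.5), CHCHD5 (19.9), CHCHD4 (12.5), CHCHD10 (8.51) and SPATA18 (0.713), and only CHCHD7 and CHCHD6 overlapped. FPKM gave the same order in both groups. Within a library FPKM and TPM differ only by a common factor, so that is no separate check. By TPM the 6 relatives other than CHCHD2 kept their places apart from the neighbours CHCHD6 and CHCHD7.

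Short transcripts as a class were slightly higher in knockdown, which touches the small differences above. Tested genes were put in 10 bins of equal size by transcript length. Length was that of the longest protein-coding transcript in GENCODE, which need not be the length behind the deposited TPM. In the shortest bin (207 to 1525 bases), which holds CHCHD2, CHCHD10 and CHCHD6, the median log2 fold change was 0.12, with 35.29% higher and 11.21% lower. The next bin (1526 to 2041 bases), which holds CHCHD3, CHCHD4 and CHCHD7, had a median of 0.08. With the trend in length and base composition removed from each library, the log2 differences were 0.34 for CHCHD3 and 0.12 for CHCHD7, both still past the threshold. Whether length plays a part in their differences was not tested.

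Only 3 of 17504 genes were switched in the sense that a group held at most 3 counts over its 3 libraries while every library of the other group held at least 50. CHCHD2 and ZNF558 were silent in control, which is 0.0114% of the table, and ZNF585A was silent in knockdown, which is 0.00571%. ZNF558 (chromosome 19) was at 0 counts throughout control and at 759, 743 and 735 in knockdown, a level of 50.3 ± 1.44 CPM (SD, n = 3). Setting its control libraries to 3 counts each gives a difference of at least 248.1-fold higher. ZNF558 was thus detected in the same libraries in which SPATA18 was low; the relation was not tested. ZNF585A, another KRAB zinc finger gene of chromosome 19, had 364.84, 328.83 and 359.92 estimated counts in control and 0, 0 and 1 in knockdown. With at most 10 counts allowed in the silent group the number of switched genes was 4, and with at least 20 required in the other group it was 6.

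**Figure D3:**
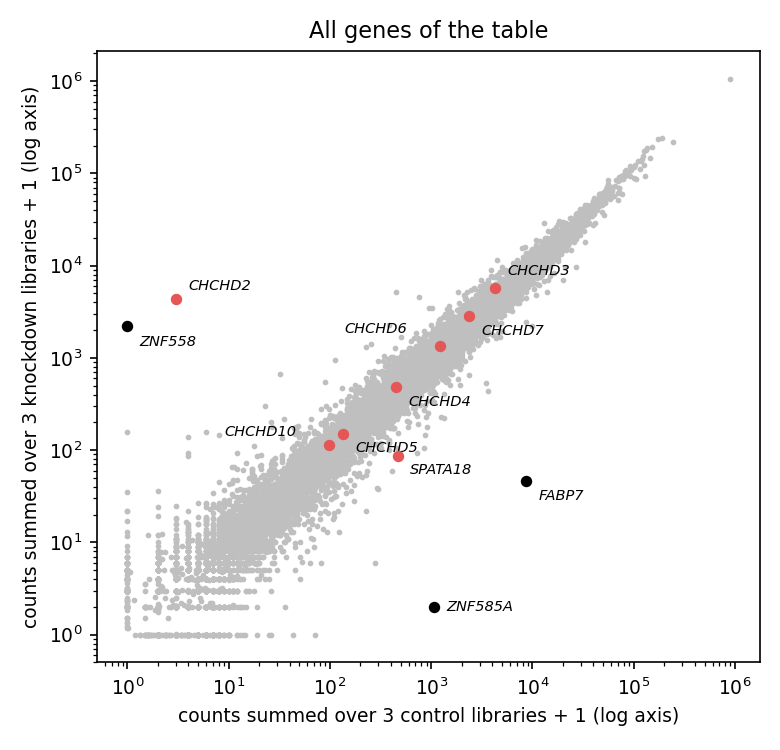
Counts summed over 3 control libraries (x) and 3 knockdown libraries (y), each plus 1 on log axes, for all 17504 genes in grey, the 8 genes described in red and FABP7, ZNF558 and ZNF585A in black. CHCHD2 (2 counts against 4391) and ZNF558 (0 against 2237) stand apart at the upper left, and the relatives of CHCHD2 lie in the cloud along the diagonal.

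The genes beside CHCHD2 and SPATA18 showed none of the same size of difference. On one side of CHCHD2 lie SUMF2, a relative of the enzyme that activates sulfatases, at 13.63 kb, then CCT6A, a chaperonin subunit, and PSPH, an enzyme of serine synthesis. All 3 rose slightly by edgeR with Benjamini-Hochberg adjustment: PSPH from 21.9 to 26.1 CPM (log2 fold change 0.25, adjusted p = 0.0132), CCT6A from 528.7 to 588.9 CPM (0.16, adjusted p = 0.00148) and SUMF2 from 35.6 to 39.8 CPM (0.16, adjusted p = 0.0334), each with all 3 knockdown libraries above control. On log2(TPM + 1) PSPH was 0.14 and the other differences turned to -0.03 for CCT6A and -0.02 for SUMF2, and none passed the threshold, nor did any with library totals alone. Without control replicate 3 or without knockdown replicate 2 PSPH and SUMF2 no longer passed, and SUMF2 failed without control replicate 1 or knockdown replicate 1. SUMF2 also lost the call with upper-quartile factors, the DESeq2 Wald test or a filter of at least 10 CPM. On the other side the nearest tested genes lie much farther away, LOC107986800 at 269.2 kb, LOC124901643 at 7659 kb and ZNF680 at 8393 kb. They did not pass, at log2 fold changes of -0.01, 0.06 and 0.15. Within 5 Mb of CHCHD2 the median log2 fold change of 14 tested genes was 0.05.

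Around SPATA18 the nearest gene, SGCB, a sarcoglycan of the muscle membrane, lies 13.01 kb away and had a log2 fold change of -0.07 that did not pass. LRRC66 (-0.26), RASL11B (-0.02) and SCFD2 (0.09) did not pass either. DCUN1D4, which promotes neddylation of cullins, rose from 59.6 to 76.4 CPM (log2 fold change 0.36, edgeR adjusted p = 1.53e-05, 3 of 3 libraries above control) but did not pass on log2(TPM + 1), where it was 0.12. USP46, a deubiquitinase, rose from 37.95 to 43.35 CPM (0.19, edgeR adjusted p = 0.0184) with overlapping groups, and lost the call without control replicate 1, knockdown replicate 2 or knockdown replicate 3 and with library totals, the DESeq2 Wald test or TPM. SGCB passed as lower with library totals (-0.13), on log2(TPM + 1) (-0.24) and with the length and GC trend removed (-0.10). Within 5 Mb of SPATA18 the median of 39 tested genes was -0.02.

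**Figure D4:**
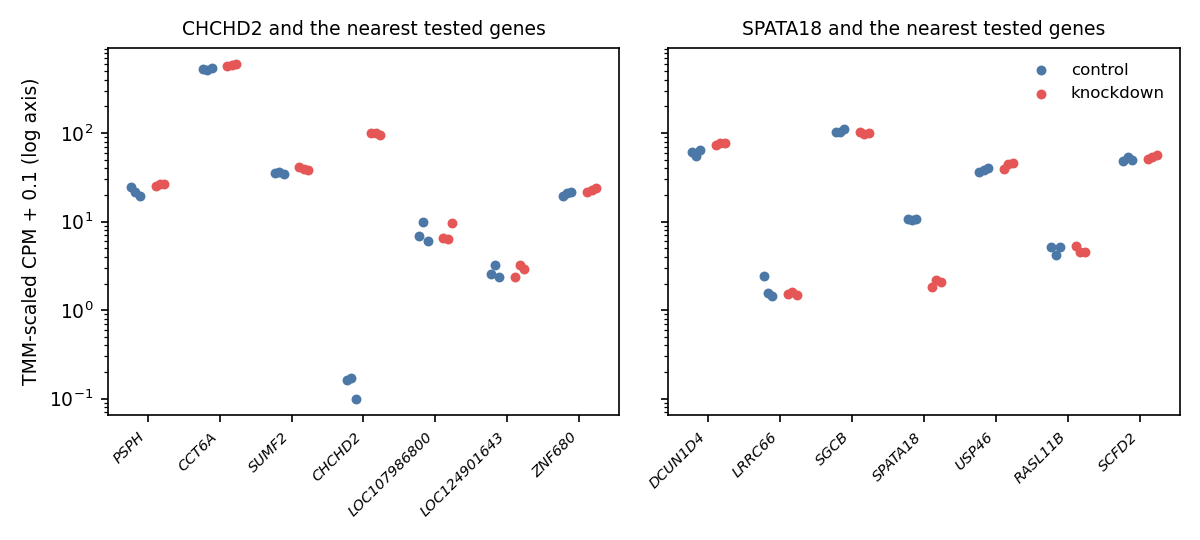
TMM-scaled CPM plus 0.1 on a log axis in each library for CHCHD2 (left) and SPATA18 (right) and the 3 nearest tested genes on each side, in chromosome order. CHCHD2 differs by about 3 powers of 10 between the groups and SPATA18 by 5.42-fold, and each neighbouring gene has its control and knockdown points at nearly the same height.

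The machinery around the 8 genes was read from 9 lists of pathway genes. Each list is set beside all tested genes, whose median log2 fold change was -0.01 and of which 26.4% rose and 25.3% fell. Called genes passed on these same libraries, so a lack of overlap among them adds no separate support. Where a list is also given on log2(TPM + 1), the background is 11.9% higher and 45.9% lower with a median of -0.16, and with library totals it is 19.7% higher and 32.6% lower. The CHCHD4 import relay held no called gene: AIFM1, which anchors CHCHD4, had a log2 fold change of 0.12 and GFER, which reoxidises it, had -0.06, and neither passed edgeR's threshold. With log2(TPM + 1), 1 of the 2 passed, as lower. Among 6 small TIM chaperones, other substrates of the relay, 2 rose, TIMM10B by 0.35 ± 0.05 (log2, SE) and TIMM9 by 0.30 ± 0.07, none fell, and the list's median was 0.11. With log2(TPM + 1), 1 was higher and 2 were lower, the median was -0.05, and TIMM9 did not pass, at 0.14.

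Of 10 other MICOS and bridging complex genes, 3 rose, 2 fell and 5 did not pass, with a median of 0.09. SAMM50, the outer membrane partner of MICOS, rose from 86.8 to 123.7 CPM (log2 difference 0.51 ± 0.04 SE, edgeR adjusted p = 2.12e-09). MTX3, a metaxin, rose by 0.42 and APOOL by 0.18 on the log2 scale. APOOL turned to -0.01 on log2(TPM + 1) and did not pass without control replicate 2, knockdown replicate 2 or knockdown replicate 3, with library totals (0.11) or with the DESeq2 Wald test. The whole list had 2 higher and 4 lower on log2(TPM + 1), with a median of -0.08. MICOS10 fell from 39.3 to 21.2 CPM (-0.90) and DNAJC11 fell from 44.9 to 29.8 CPM (-0.59). Both genes that fell lie on chromosome 1 in stretches where the median of tested genes within 5 Mb was -0.54 and -0.53, and without chromosome 1 the list had 3 higher and 0 lower. The core subunit IMMT was 87.0 and 94.0 CPM and did not pass (edgeR adjusted p = 0.0559). All 5 called genes had 3 of 3 knockdown libraries on one side of control, beside 57.3% of all tested genes.

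Of 16 tested genes for other twin CX9C proteins, 7 rose, 3 fell and 6 did not pass, with a median of 0.18. The largest rise among those named was in NDUFS5, a complex I subunit, from 100.7 to 175.9 CPM (log2 difference 0.80 ± 0.07 SE, edgeR adjusted p = 4.11e-07), although tested genes within 5 Mb on chromosome 1 had a median of -0.46. UQCRH, a complex III subunit also on chromosome 1, fell from 341.9 to 255.4 CPM (-0.42), with a local median of -0.46 within 5 Mb. COA6 and COA5, assembly factors of cytochrome c oxidase, rose by 0.48 and 0.30 on the log2 scale. All 4 had knockdown libraries clear of control, beside 57.3% of all tested genes. The list had 2 higher and 3 lower on log2(TPM + 1), and COA5 did not pass, at 0.12. COX6B2, a testis form of a complex IV subunit, was not tested for low counts.

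Among 11 tested partners of CHCHD2 and CHCHD10, 7 rose, 3 fell and 1 did not pass, with a median of 0.16. CXXC5, which CHCHD2 binds in the nucleus, fell from 48.35 to 32.8 CPM (log2 fold change -0.56, edgeR adjusted p = 2.68e-07, 3 of 3 libraries below control). BAX, the cell death effector that CHCHD2 restrains, fell from 16.8 to 11.04 CPM (-0.61). STOML2, a scaffold of the inner membrane, rose by 0.32 and LRPPRC, which stabilises mitochondrial messengers, by 0.17 on the log2 scale. LRPPRC turned to -0.01 on log2(TPM + 1), where the list had 1 higher and 3 lower. COX4I2, the cytochrome c oxidase subunit gene that CHCHD2 is known to activate, had at most 1 count in a library of either group.

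Of 12 genes for inner membrane proteases and mitochondrial dynamics, 4 rose, 1 fell and 7 did not pass, with a median of 0.03. FIS1, a fission adaptor, rose from 70.1 to 105.0 CPM (log2 fold change 0.58, edgeR adjusted p = 1.37e-08). YME1L1, PARL and MFF rose by 0.27, 0.21 and 0.12 on the log2 scale and did not pass on log2(TPM + 1), where MFF was -0.04. MFF also lost the call without control replicate 1, knockdown replicate 1 or knockdown replicate 2, with upper-quartile factors or library totals, and, like PARL, with the length and GC trend removed. The list had 1 higher and 5 lower on log2(TPM + 1), with a median of -0.14, and 3 higher and 3 lower with library totals. MFN2, a fusion protein, fell from 222.2 to 164.4 CPM (-0.43), with a median of -0.52 for tested genes within 5 Mb on chromosome 1. The stress protease OMA1 was 7.18 and 7.21 CPM and its substrate OPA1 was 165.7 and 155.6 CPM, and neither passed.

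In mouse, mutant CHCHD2 and CHCHD10 engage a stress relay from OMA1 through DELE1 and the kinase HRI, encoded by EIF2AK1, to ATF4. A list of DELE1, EIF2AK1, ATF4 and ATF4-linked stress genes, without OMA1, had 9 of 12 tested genes higher, 1 lower and 2 not passing, with a median of 0.34. DELE1 was 20.6 and 23.75 CPM and EIF2AK1 193.6 and 215.7 CPM, and both rose on that scale (edgeR adjusted p = 0.0201 and 0.0045). In TPM, DELE1 was 8.91 and 8.62 and EIF2AK1 71.0 and 69.5, lower in knockdown, so their direction rests on the scaling. DDIT3, which encodes CHOP, rose from 73.05 to 131.0 CPM (log2 difference 0.84 ± 0.05 SE, edgeR adjusted p = 5.85e-12). MTHFD2 of mitochondrial folate metabolism rose from 92.4 to 130.8 CPM (0.50), PSAT1 of serine synthesis from 162.6 to 213.0 CPM (0.39) and ATF4 from 451.5 to 569.7 CPM (0.34). Each of these 4 had all 3 knockdown libraries above control, beside 57.3% of all tested genes without overlap in either direction. SESN2, on chromosome 1, fell by 0.38 on the log2 scale, with a median of -0.44 for tested genes within 5 Mb. The count was 6 higher and 1 lower on log2(TPM + 1). FGF21 had at most 1 count in a library and was not tested.

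Of 20 mitophagy genes, 8 rose, 6 fell and 6 did not pass, with a median of 0.05. PINK1, the kinase that marks damaged mitochondria, fell from 94.15 to 60.95 CPM (log2 fold change -0.63, edgeR adjusted p = 1.14e-09), with a median of -0.55 for tested genes within 5 Mb on chromosome 1. CALCOCO2, an autophagy receptor, rose from 31.0 to 47.9 CPM (0.63) and SQSTM1, another, rose by 0.33 on the log2 scale. GABARAPL1, a protein of the autophagosome membrane, fell by 0.35 on the log2 scale. All 4 had knockdown libraries clear of control, beside 57.3% of all tested genes. The list had 3 higher and 9 lower on log2(TPM + 1), beside the 11.9% and 45.9% of all genes on that scale. Lower calls numbered 4 with the DESeq2 Wald test and 3 without control replicate 1 or without knockdown replicate 2, where higher calls numbered 7. BNIP3, whose protein is a mitophagy receptor that SPATA18 binds, was 167.4 and 170.4 CPM and did not pass. Its relative BNIP3L rose from 330.9 to 382.3 CPM (log2 fold change 0.21, edgeR adjusted p = 1.53e-04), while its TPM was 158.1 and 160.7.

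Among 6 genes of the KRAB corepressor, through which proteins such as ZNF558 silence genes, ATF7IP rose by 0.28 and TRIM28 by 0.19 on the log2 scale, 4 did not pass, and neither ATF7IP nor TRIM28 passed on log2(TPM + 1), where 0 were higher and 2 others were lower.

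**Figure D5:**
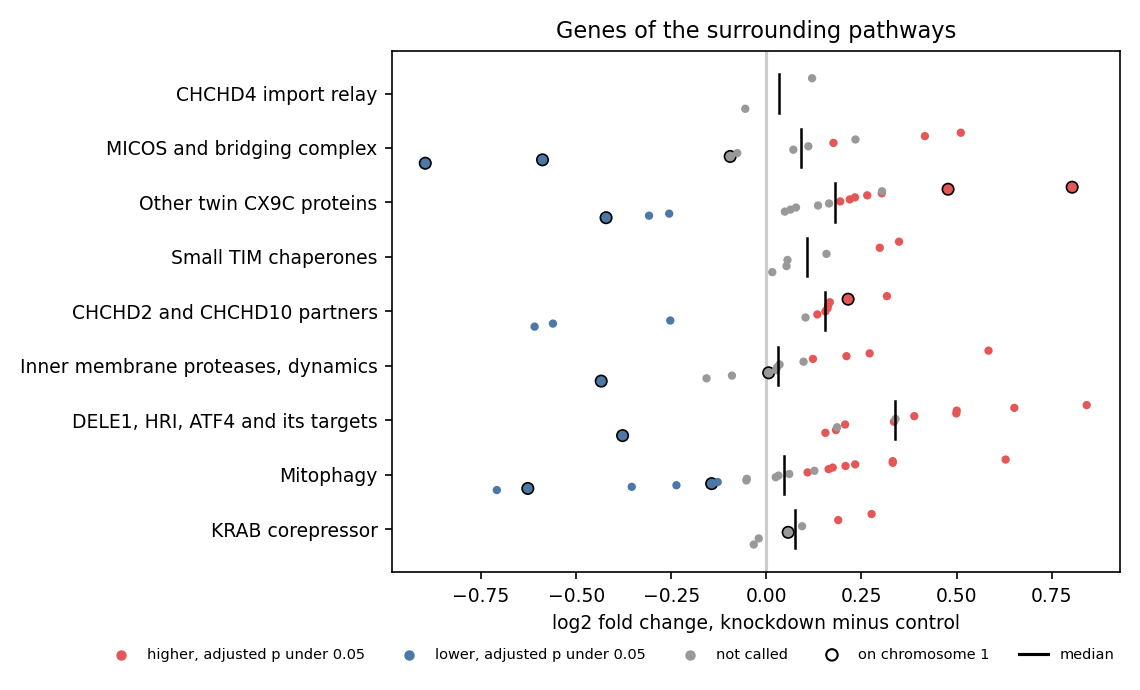
Log2 fold change, knockdown minus control, of the tested genes in the 9 pathway lists, coloured by the edgeR call, ringed where the gene lies on chromosome 1, with a bar at each list's median. The list of DELE1, HRI, ATF4 and its targets lies mostly above 0 with a median of 0.34, all 6 small TIM chaperones lie above 0, and the other lists straddle 0.

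Levels of a few genes of other cell types moved with the groups and are given beside the results above. Of 6 mesenchyme markers, which summed to 7.559 to 9.053 CPM in control and 15.42 to 16.28 CPM in knockdown, LUM rose from 0.484 to 6.81 CPM and 2 were at or under 3 counts everywhere. Of 6 microglia and endothelium markers, which summed to 3.24 to 3.765 and 10.88 to 10.91 CPM, AIF1 alone rose, from 2.93 to 10.5 CPM, while the means of the other 5 were lower and 3 were at or under 3 counts everywhere. Pluripotency markers, 4 in number, summed to 6.074 to 7.53 and 6.119 to 7.095 CPM, and 5 choroid plexus markers to 1.89 to 2.245 and 1.351 to 1.929 CPM. The part of other cell types in the values of the 8 genes was not tested.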

How the data were processed

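Bulk RNA was measured in 3 control and 3 FABP7 knockdown libraries. The deposited table held expected counts, TPM, FPKM and a normalized read count (a signal scaled by 1 factor per library) for each gene in each library, per the file headers. The submitters' processing notes name hg38, while aligner, counter and annotation were not given in the sources used here. The labels' protocol is the same text for all samples and describes a single-cell kit, and the series' design line speaks of adipogenic differentiation where the labels say brain organoid. Of the expected counts 12.6 to 14.9% per library were not whole; they were rounded.

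The 8 genes, the pathway lists and the tests were chosen with earlier results of these data known. Counts were tested with edgeR 4.0.16 in R 4.3.3 (TMM factors 0.974 to 1.03, filterByExpr with minimum count 10 and minimum total 15, robust quasi-likelihood F-test, Benjamini-Hochberg adjustment over 13468 genes, threshold 0.05) and checked on simulated data. The simulated data held few changed genes, evenly up and down, so the check does not cover data where as many genes pass as here. Fold changes are knockdown minus control, and the column of normalized read counts entered no test. Ratios for genes at 3 counts or fewer carry binomial 95% intervals that cover counting error only, and no replicate was a repeat deposit (chi-square per degree of freedom 1.65 to 4.08). Genes were placed by NCBI Gene ID on RefSeq GRCh38.p14 (17493 of 17504), pseudogenes and overlaps were read from GENCODE, and motifs were searched on both strands.

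The genes named were the 8, FABP7, ZNF558, switched genes, 3 neighbours on each side, and the 4 smallest p-values of each list among genes past the threshold, or all where 5 or fewer passed, with members at or under 3 counts. AIFM1, GFER, IMMT, OMA1, OPA1, SESN2, DELE1, EIF2AK1, BNIP3, BNIP3L, SOX2, PAX6, LUM, FOXJ1, CCDC39, MCIDAS, AIF1, COX6B2, C22orf15 and MMP11 were added once their values had been seen. A further list is not reported here. The fits were repeated with upper-quartile factors, DESeq2 size factors, unscaled library totals, the DESeq2 1.42.0 Wald test, limma-voom, limma 3.58.1 limma-trend on log2(TPM + 1) and log2(TPM + 0.1), other filters, FPKM for the order, the replicate number as a block, leaving out each library, and, chosen after seeing the data, limma-trend on log2 CPM, removal of a trend with length and GC content (splines with 5 degrees of freedom), and lists without chromosome 1.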

Additional observations from a re-analysis of the deposited data

How the results depend on the processing

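Scaling moved the size of the small differences. The share of calls that were higher was 51.1% with TMM, 37.7% with library totals, 20.6% on log2(TPM + 1) and 55.1% with the length and GC trend removed, as the median of all genes moved to -0.07, -0.16 and 0.02. CHCHD3 was 0.375 with library totals, 0.2663, 0.2683 and 0.2663 on log2(TPM + 1), log2(TPM + 0.1) and log2(TPM + 1) without a filter, and 0.3392 with the trend removed. In the same order CHCHD4 was 0.0178, then -0.0735, -0.0785 and -0.0735, then 0.0015, CHCHD7 was 0.2074, then 0.1041, 0.1057 and 0.1041, then 0.1207, and on the TPM scales CHCHD6 was -0.0406, -0.0413 and -0.0406. SPATA18 was -1.5992 on log2(TPM + 1) with and without the filter, where the pseudocount shrinks low genes by construction. The direction turned on those 3 TPM scales for CCT6A (-0.0272, -0.0273, -0.0272), SUMF2 (-0.0173, -0.0178, -0.0173), APOOL (-0.0078, -0.0085, -0.0078), LRPPRC (-0.0096, -0.0098, -0.0096) and MFF (-0.0381, -0.0383, -0.0381). Genes added once their values had been seen were not part of that comparison, nor were genes that passed in neither fit. The cause of these moves was not tested.

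Counts of called genes moved by more than 1.5 times for some lists. On the 3 TPM scales the import relay had 1 call in place of 0, the other twin CX9C proteins 5 in place of 10 and the partners 4 in place of 10, with 6 under library totals. Small TIM chaperones had 1 with the trend removed, the KRAB corepressor 1 on log2(TPM + 1) without a filter and 5 with the trend removed, and MICOS 3 without chromosome 1. Switched genes numbered 6 with at least 20 counts required. On the TPM scales 3 of the 8 genes passed rather than 4, without CHCHD7; since the genes were chosen on this contrast, a count that stays at 4 elsewhere supports nothing. A filter of at least 10 CPM tested only 6 of the 8. For FABP7, the neighbours and the list genes named by p-value, 731 values under the alternatives stayed on the same side of the threshold. Direction was compared only where a gene passed in the main fit or in the alternative. Genes that passed in neither may have turned among the 731. Of their other values 58 lost the call, 5 gained it and 15 turned. Genes added once their values had been seen are not in these counts.

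Leaving out 1 library at a time gave 5888 to 6983 called genes and 4 of the 8 genes throughout. The log2 differences ran from 0.0849 to 0.383 for CHCHD10, 0.4143 to 0.461 for CHCHD3, 0.0445 to 0.1327 for CHCHD4, -0.0215 to 0.4198 for CHCHD5, 0.0675 to 0.1905 for CHCHD6, 0.2531 to 0.3039 for CHCHD7 and -2.4935 to -2.351 for SPATA18. The CHCHD2 ratio ran from 1468 to 3035, with 1 or 2 control counts behind it. Lists had 0 calls (relay), 4 to 6 (MICOS), 8 to 11 (twin CX9C), 2 to 3 (small TIM), 9 to 10 (partners), 4 to 7 (dynamics), 9 to 11 (DELE1, HRI and ATF4 list), 10 to 13 (mitophagy) and 2 to 3 (KRAB).

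Same-number libraries had correlations of deviations of 0.0698, 0.0653 and 0.0393, beside -0.121 to 0.0566 for other pairs. Controls 1 and 2 correlated best with their own number, and control 3 with knockdown 2 (0.0532). Values this small do not settle whether the replicate numbers pair the samples. With the replicate block 7114 genes and 4 of the 8 were called. Depth limits CHCHD10 and CHCHD5, at 25 to 61 counts a library, and the control level of CHCHD2, at 0 to 1.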
